A study of Mus musculus with 16 samples.

Results

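The hearts described here were not loaded with pressure. They came from 8 of the 16 mice of the series, 4 control mice (Ctrl sham) and 4 mice lacking the long noncoding RNA Cardinal (KO sham), and they were chosen by the genotype and operation in the sample labels. Ctrl mice are labelled WT, and the KO allele is a CRISPR/Cas9 deletion in the whole body, not one limited to heart cells. All 8 mice had their chest opened in a sham operation, with no tie around the aorta, and the apex of the heart was taken 4 weeks later. The study used male mice, and their age is not given in the sources used here. Poly(A) RNA was sequenced, and the deposited values are read counts per gene.

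Long noncoding RNAs are transcripts that are not translated into a known protein. Cardinal (Gm12295) is transcribed beside the gene for myocardin (Myocd), a cofactor of serum response factor (Srf) in muscle. The adult heart at rest is dominated by transcripts for the contractile apparatus, calcium cycling and oxidation of fatty acids, and a heart under pressure switches on natriuretic peptides, skeletal actin and matrix genes. The comparison without load asks how far the 2 genotypes differ before any such switch.

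Total counts per library lay between 53169437 and 79357479, and 24458 to 25919 genes had a count. The share of counts in mitochondrially encoded genes ranged from 26.8% to 28.8%. It was 27.6% ± 0.860 in Ctrl sham and 27.9% ± 0.544 in KO sham (SD, n = 4 each, exact two-sided permutation p = 0.629, adjusted over 3 values p = 0.886). One division of the libraries did not follow genotype. The animal numbers in the labels start with 33 for Ctrl sham 4 and KO sham 1, 2 and 3, and with other digits for Ctrl sham 1, 2 and 3 and KO sham 4, and what these numbers stand for is not stated. On the first principal component of log2 CPM (21.4% of the variance) the 4 libraries numbered 33 sat between 5.31 and 29.4 and the other 4 between -17.9 and -15.2. KO sham 3 was alone on the second component (17.4%), at -41.0, with the others between 2.99 and 11.5. The number and the genotype overlap, since 3 of 4 KO libraries but only 1 of 4 Ctrl libraries is numbered 33. Genotype values are pooled unless said otherwise. For part of the genes and lists they are given also with the number as a term. A value given only pooled may differ with that term.

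The resting apex had the profile of ventricular muscle. Levels between genes are given here as TPM, the counts divided by exon length and scaled to the same sum in every library. Myoglobin (Mb), the oxygen store of muscle, stood at 7869 ± 303 TPM in Ctrl sham (SD, n = 4), cardiac actin (Actc1) at 7014 ± 678, and the adult myosin heavy chain Myh6 at 5789 ± 436. The fatty acid carrier Fabp3 had 4476 ± 116 TPM, the ventricular light chain Myl2 had 4029 ± 213, the calcium pump Atp2a2 had 3923 ± 116 and the light chain Myl3 had 3035 ± 171. These were 7 of the 15 nuclear genes with the highest level, and neighbours such as Fabp3 and Myl2 differed by more than their spread while Myl2 and Atp2a2 did not. The other 8 of the 15 are annotated as unprocessed pseudogenes (Gm28661, Gm10925, Gm28437, Gm29216, Gm28439, Gm10222, Gm28438 and Gm13340). Their levels of 3196 to 34338 TPM are uncertain where their sequence is a near copy of mitochondrial DNA. Counts given to them are not part of the mitochondrial share above.

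Atrial tissue was barely present by Myl7 and Sln, but the markers did not all go one way. The atrial light chain Myl7 was at 0.215 ± 0.148 TPM and sarcolipin (Sln), an atrial inhibitor of the calcium pump, at 0.0152 ± 0.0303 TPM in Ctrl sham, against 16.5 ± 2.92 for the ventricular transcription factor Irx4. On the atrial list Kcnj3 had 26.4 ± 1.55, Stard10 11.8 ± 1.37 and Tbx5 6.60 ± 0.681 TPM. On the ventricular list Hey2 had 1.31 ± 0.320 and Kcne1 0.508 ± 0.0488 TPM. The atrial list as a whole summed to 196 to 346 TPM in Ctrl sham and 246 to 383 TPM in KO sham, most of it natriuretic peptide A (Nppa), and 8 of its 12 genes had enough counts to be tested. Endothelial, fibroblast and macrophage transcripts were measured beside the muscle. The endothelial cadherin Cdh5 had 52.9 ± 5.78 TPM and the matrix proteoglycan decorin (Dcn), a fibroblast product, had 81.4 ± 4.67 TPM. The macrophage receptor Adgre1 stood at 4.27 ± 1.13 TPM and C1qa, also on the macrophage list, at 43.5 ± 7.51 TPM. Levels varied within the other lists too, with endothelial Vwf at 4.33 ± 0.428 and fibroblast Pdgfra at 4.52 ± 0.782 TPM. The cell types are not ranked by these genes. Red cell genes summed to 1705 to 2729 TPM in Ctrl sham and 1840 to 2464 TPM in KO sham. The skeletal myosin heavy chain Myh4 was at 0.0325 ± 0.0309 TPM and the fat hormone Adipoq at 0.0832 ± 0.0741 TPM. Some other members of these lists were much higher. On the skeletal muscle list Ckm had 893 ± 36.5, Acta1 213 ± 80.4 and Myl1 17.3 ± 3.83 TPM. The fat cell list held Fabp4 at 143 ± 11.2 and Cidea at 25.1 ± 2.55 TPM. In bulk tissue, fewer cells of a type and less RNA per cell cannot be told apart.

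Cardinal was much lower in every KO heart. From here on levels are CPM, counts divided by the scaled library total and brought to one common sum. Cardinal stood at 3.52, 3.69, 3.10 and 3.22 CPM in Ctrl sham 1 to 4 and at 0.528, 0.284, 0.444 and 0.519 CPM in KO sham 1 to 4, so the groups did not overlap. In reads this was 173 to 265 counts against 17 to 35. The log2 fold change was -2.92 ± 0.19 (SE), a level 7.58-fold lower (95% interval 5.71 to 10.1), with an edgeR quasi-likelihood adjusted p of 4.54e-05. The KO mean was 13.1% of the Ctrl mean. The exact two-sided permutation p was 0.0286, the smallest that 70 relabellings of 4 against 4 libraries can give, and 0.0857 after adjustment over the 3 values tested this way. Which bases the deletion removed was not analysed here, so the counts that remained in KO hearts cannot be placed inside or outside it.

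Even in Ctrl hearts Cardinal was a minor transcript, at 1.57 ± 0.134 TPM, with 11094 genes above it. Its annotation lies at chr11:65277654-65365798 on the minus strand (GRCm38, GENCODE release 21), with exons of 3585 bases in all in this annotation. The start of its longer annotated transcript, of 3189 bases, is shown to identify the RNA whose counts checked the knockout (bases 1 to 120, no part marked).
Gm12295-201: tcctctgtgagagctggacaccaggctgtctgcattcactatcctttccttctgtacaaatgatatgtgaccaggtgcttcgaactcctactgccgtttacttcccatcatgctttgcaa

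**Figure D1:**
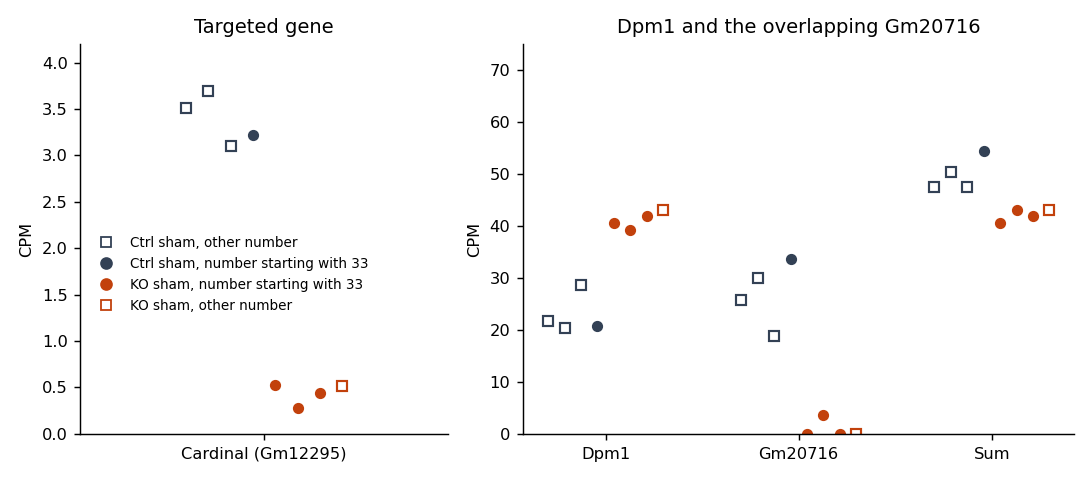
CPM (vertical axes, from 0) of Cardinal, and of Dpm1, the overlapping predicted gene Gm20716 and their sum, with 1 point per sham library. Cardinal is lower in all 4 KO libraries; Dpm1 is higher in them and Gm20716 near 0, while their sum differs less, 42.1 in KO sham against 49.9 in Ctrl sham.

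None of the neighbours of Cardinal was called. Of 19 genes annotated within 1 Mb, 8 passed the filter, and Cardinal was the 1 that was called. Myocd stood at 24.3, 26.0, 21.3 and 28.8 CPM in Ctrl sham, against 28.6, 25.3, 27.3 and 21 CPM in KO sham. The groups overlapped throughout, the log2 fold change was 0.03 (95% interval -0.21 to 0.27), and the exact two-sided permutation p was 0.886 (adjusted 0.886). With the number as a term the Myocd value was -0.14 (-0.32 to 0.04). The stress kinase gene Map2k4 had a log2 fold change of -0.08 (-0.21 to 0.05), and the tRNA processing gene Elac2 had -0.00 (-0.16 to 0.16). The values of the 7 neighbours lay between -0.45, for the low heparan sulfate gene Hs3st3a1, and 0.03, and the 95% intervals of 6 lay within a 2-fold change.

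Across the transcriptome the 2 genotypes were close. Of 17264 genes tested, 2 (0.0116%) had an adjusted p under 0.05 in edgeR, Cardinal, which was lower, and Dpm1, which was higher. DESeq2 and limma also called 2. An unadjusted p under 0.05 was found for 401 genes (2.32%), 186 higher and 215 lower in KO sham, where 863.2 would be expected if no gene differed. This count was 322 with the number as a term, 936 without Ctrl sham 4 and 702 without KO sham 4. The shortfall is therefore not read as a sign that the genotypes are alike. The CPM of the groups did not overlap for 298 genes (1.73%). The median absolute log2 fold change was 0.07 over all tested genes.

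Dpm1, a subunit of the enzyme that makes dolichol phosphate mannose, stood at 21.8, 20.3, 28.6 and 20.7 CPM in Ctrl sham, against 40.5, 39.3, 41.8 and 43.1 CPM in KO sham. Every KO library was above every Ctrl library, and the log2 fold change was 0.85 ± 0.10 (SE, adjusted p = 0.0354). Dpm1 shares exons on chromosome 2 with the predicted gene Gm20716, which went the other way, at 25.7, 30.0, 18.8 and 33.7 CPM in Ctrl sham, against 0, 3.68, 0 and 0 CPM in KO sham, and was not called. With both genes summed, the log2 fold change was -0.25 (95% interval -0.36 to -0.13) and no longer called. Summed also with Adnp, a transcription factor gene that shares exons with Gm20716, it was 0.01 (-0.09 to 0.11), with 89.4 ± 2.67 CPM in Ctrl sham, against 90.3 ± 3.37 CPM in KO sham. How reads were divided among these genes is not stated, so the Dpm1 value is uncertain. The call was also lost with the animal number as a term (adjusted p = 0.0791), in the fit to all 16 libraries (0.513) and on leaving out any 1 library other than Ctrl sham 3, with adjusted p from 0.101 to 0.322 in those 7 fits.

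No other gene passed, and the genes with the smallest p that did not overlap are given as values only. Tesmin, a germ cell gene, stood at 1.47 to 2.12 CPM in Ctrl sham, against 2.50 to 3.74 CPM in KO sham (log2 fold change 0.74, 95% interval 0.38 to 1.11). The hexosamine enzyme gene Gnpnat1 had 1.87 to 2.14 CPM against 2.66 to 3.03 CPM (0.50, 0.24 to 0.76), and the mitochondrial ribosome gene Mrps22 had 12.8 to 14.0 against 15.5 to 16 CPM (0.21, 0.08 to 0.34). The others named on the higher side, Lrrc14b, Snrnp25, Adnp and the mitochondrial import receptor gene Tomm20, had log2 fold changes of 0.13 to 0.36. With the number as a term Adnp was at 0.42 (0.24 to 0.59). On the lower side the leukocyte exchange factor gene Dock2 had 2.47 to 3.94 CPM in Ctrl sham, against 1.66 to 2.17 CPM in KO sham (-0.73, -1.08 to -0.37). The actin regulator Eps8l1 had 5.54 to 8.24 against 1.16 to 4.22 CPM (-1.19, -1.98 to -0.40), and -1.72 (-2.39 to -1.05) with the number as a term. Srcap, Oasl2, Celsr2, Slc6a17, Gemin4 and the glycolytic regulator Pfkfb3 lay between -0.48 and -0.29. None of these genes was called.

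The data bound the pooled difference between the genotypes more firmly than they show one. The animal number and the genotype overlap, so this pooled difference also holds part of any difference by number. A 95% interval wholly inside a 2-fold change in either direction was found for 15487 genes (89.7%), and 16027 genes (92.8%) passed an equivalence test within 2-fold at an adjusted p under 0.05. Within 1.5-fold, 12910 genes (74.8%) passed. With the number as a term 14750 genes were bounded and 15390 were equivalent within 2-fold. How tight the bound was depended on the level. The median distance from the estimate to either end of the interval was 0.69 log2 for 3942 genes below an average log2 CPM of 0, 0.37 for the 2864 genes from 0 to 2, 0.21 for the 4164 genes from 2 to 4 and 0.14 for the 4458 genes from 4 to 6. Above 6 it was 0.12, with no further gain at the highest levels. Of the 10458 genes whose average log2 CPM reached 2, 83 were not held within 2-fold. The narrowest intervals among the higher genes belonged to Pafah1b1, Ptprb, Eef1a2, Copa and Sptbn1. Pafah1b1, a regulator of dynein, had 0.02 (-0.07 to 0.10). The widest belonged to the chaperone genes Hspa1b, Hspa1a, Hsph1, Hsp90aa1 and Dnaja1, with -5.05 to 4.61 for Hspa1b.

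**Figure D2:**
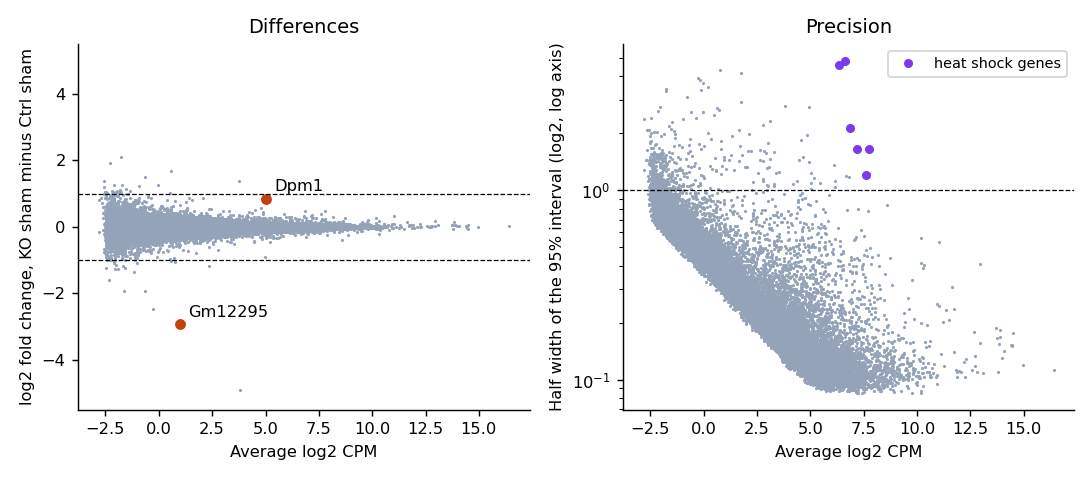
Left, log2 fold change of KO sham minus Ctrl sham against average log2 CPM for each of the 17264 tested genes, with the 2 called genes marked and dashed lines at 1 and -1. Right, distance from the estimate to either end of the 95% interval (log axis) against the same level; it narrows from 0.69 at the lowest levels to 0.12, and marked heat shock genes lie far above the other genes of their level.

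No muscle gene named here was called by genotype. Myh6 stood at 23490 ± 2319 CPM in Ctrl sham, against 22646 ± 2120 CPM in KO sham (log2 fold change -0.05, 95% interval -0.23 to 0.12). Its slow counterpart Myh7, which rises in loaded hearts, had 1382 ± 101 against 1378 ± 115 CPM (-0.00, -0.15 to 0.14). Troponin T (Tnnt2) had a log2 fold change of 0.04 (-0.08 to 0.16), Actc1 -0.00 (-0.13 to 0.13), the calcium pump Atp2a2 -0.05 (-0.16 to 0.06), its inhibitor Pln -0.01 (-0.13 to 0.12) and the calcium release channel Ryr2 -0.09 (-0.20 to 0.03). With the number as a term Myh7 was at 0.05 (-0.12 to 0.21) and Pln at 0.04 (-0.11 to 0.19), each turned in direction. All 33 tested sarcomere and Z-disc genes and all 22 tested calcium handling genes were bounded within 2-fold. Their medians were 0.04 and -0.03, beside -0.00 over all tested genes. Of all tested genes 89.7% were so bounded, and 99.4% of those from an average log2 CPM of 4 to 6. Nothing particular to either list is read from these counts. An unadjusted edgeR p under 0.05 was found for 3 of the 33 and 0 of the 22, beside 2.32% of all tested genes.

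Genes named by the study's question were bounded too. Drg1, a GTPase that assists stalled ribosomes, stood at 31.5, 31.4, 30.7 and 29.2 CPM in Ctrl sham, against 31.5, 30.1, 31.9 and 32.3 CPM in KO sham. Its partner Zc3h15 (DFRP1) stood at 45.9, 42.7, 41.4 and 48.3 CPM against 46.7, 45.2, 44.3 and 45.5 CPM. Both groups overlapped for either gene, and the log2 fold changes were 0.03 (-0.07 to 0.14) and 0.03 (-0.09 to 0.14). With the number as a term they were 0.07 (-0.05 to 0.19) and -0.01 (-0.14 to 0.12). All 22 genes of the list of DRG GTPases and ribosome rescue factors lay within 2-fold and passed the equivalence test within 1.5-fold, with a median of 0.01. Among translation factors, 50 of 50 were also equivalent within 1.5-fold. From an average log2 CPM of 4 to 6, 98.1% of all tested genes were, so nothing particular to either list is read from these counts. Srf had 56.8 ± 5.21 against 61.3 ± 9.47 CPM (0.11, -0.13 to 0.35), and the 49 genes of the list of targets of Srf and the myocardin family had a median of 0.00, with 25 higher and 24 lower. With the number as a term Srf was at -0.04 (-0.22 to 0.14) and the list median at -0.04, with 16 higher and 33 lower.

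The response to load gives a scale for these bounds. Ctrl TAC hearts, from mice whose aorta was constricted, differed from Ctrl sham hearts at 3652 of 18275 genes (20.0%), with a fit to all 16 libraries. No Ctrl TAC animal number starts with the same 2 digits as a Ctrl sham number. Load and animal number therefore cannot be told apart in these load values. Both comparisons share the Ctrl sham libraries, and 1 TAC library goes against its label in Cardinal itself: KO TAC 4 had 377 counts, against 17 to 25 in the other KO TAC libraries. Without it and Ctrl TAC 2 (left out together after the data were seen), 3425 genes were called and the load values of the 36 preset genes moved by at most 0.23. Of 452 genes called with load at over 2-fold and tested in sham hearts, 417 (92.3%) had a genotype interval in sham hearts lying inside the size of their load response. The limit there was each gene's own load change, always over 2-fold, while 89.7% of all tested genes were held within 2-fold. These limits differ, so the shares are not like for like. Nothing particular to load genes is read from them.

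Periostin (Postn), a matrix protein of activated fibroblasts, was at 21.2, 28.3, 36.9 and 29.3 CPM in Ctrl sham, against 27.6, 28.2, 25.2 and 26.0 CPM in KO sham. Its log2 fold change was -0.11 (-0.43 to 0.21), with 2.56 under load. Col1a1 had -0.13 (-0.41 to 0.16) beside 1.67, Col3a1 -0.16 (-0.54 to 0.22) beside 1.68 and fibrillin 1 (Fbn1) -0.21 (-0.54 to 0.12) beside 1.60. The matrix list of 59 genes had a genotype median of -0.05 (-0.09 with the number as a term) and a load median of 1.15. Of its genes 58 were bounded within 2-fold, beside 89.7% of all tested genes.

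The natriuretic peptides and skeletal actin were less tightly held. Nppa stood at 85.1, 137, 124 and 152 CPM in Ctrl sham, against 181, 119, 152 and 107 CPM in KO sham (0.17, -0.38 to 0.71), and Acta1 at 123, 165, 274 and 213 against 309, 203, 231 and 144 CPM (0.19, -0.58 to 0.97). Nppb stood at 29.6, 63.8, 66.5 and 98.2 CPM against 75.4, 84.1, 121 and 39.6 CPM, and its interval reached from -0.80 to 1.43. For Nppb the 4 libraries numbered 33 were the 4 highest. With the number as a term Nppa was at -0.06 (-0.60 to 0.48), Acta1 at -0.08 (-1.02 to 0.86) and Nppb at -0.25 (-1.19 to 0.70), each below 0 where the pooled value was above it. The 21 hypertrophy markers had a genotype median of 0.16, 18 of them above 0 and none called (2.32% of all tested genes had an unadjusted p under 0.05, and 0 of these 21 did). With the number as a term the median was -0.03, and the libraries numbered 33 were 0.28 higher in the median than the others. The load median was 1.73.

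**Figure D3:**
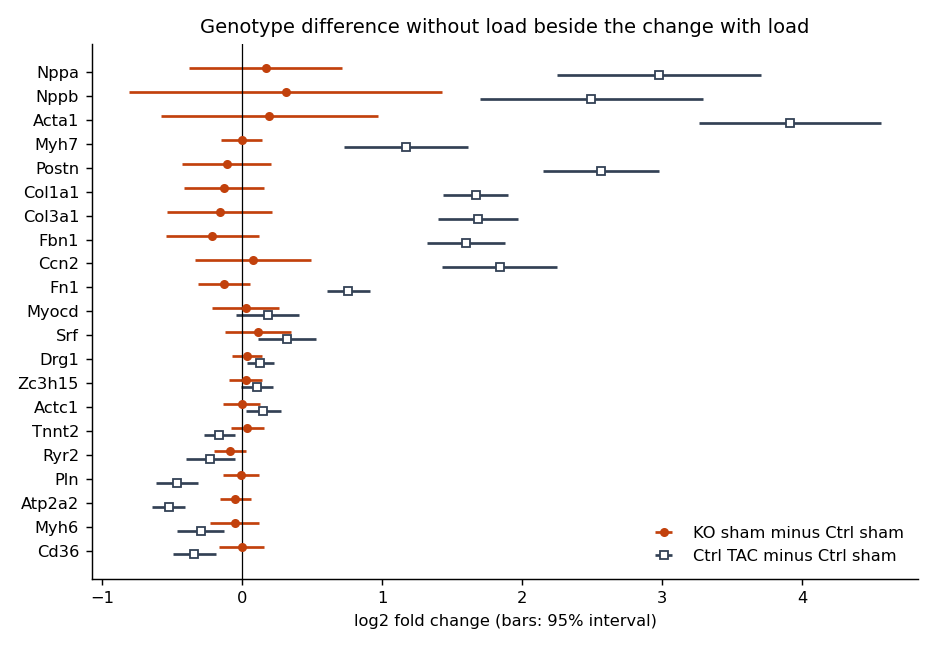
log2 fold change with its 95% interval (horizontal axis) for 21 preset genes, KO sham minus Ctrl sham (filled) and Ctrl TAC minus Ctrl sham (open), both of which use the 4 Ctrl sham libraries. The genotype intervals all hold 0, while the load values reach 3.91 for Acta1.

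Across the 36 gene lists the genotype medians lay between -0.09 (8 skeletal muscle markers) and 0.16, and no list member was called. With the number as a term the skeletal muscle median was -0.00. Cytosolic ribosomal proteins had 78 of 79 genes above 0 with a median of 0.06 (76 of 79 and 0.04 with the number as a term). All 79 were equivalent within 1.5-fold, beside 74.8% of all tested genes. Nuclear genes of oxidative phosphorylation had 69 of 76 above 0 with a median of 0.03, and 52 of 76 with a median of 0.01 once the number was a term. By number itself 63 of these 76 were higher, with a median of 0.04. For comparison, 49.0% of all tested genes were above 0. The per-library medians of the ribosomal list ran from -0.11 in Ctrl sham 3 to 0.10 in KO sham 3, and without those the libraries lay between -0.02 and 0.03.

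Interferon-stimulated genes had 4 of 32 above 0 and a median of -0.07, or -0.13 with the number as a term. Of them, 4 had an unadjusted p under 0.05 (Oasl2, Ifit2, Tap1 and Ifi27l2a, -0.33 to -0.24), beside 2.32% of all tested genes, and none was called. The list's level per library was highest in Ctrl sham 3, 0.23 log2 above the mean of the 8, and Ctrl sham 3 was also the highest for macrophage and leukocyte markers (0.24) and red cell markers (0.24). The part of these in the interferon values was not tested. In the inflammation list 3 of 30 genes had an unadjusted p under 0.05 and none was called. They were the chemokine genes Ccl2 (log2 fold change 0.62) and Ccl7 (0.49) and the neutrophil gene S100a8 (1.91, 95% interval 0.18 to 3.63, and 2.48 with the number as a term). S100a8 was at most 0.411 CPM in any library and at 0 in Ctrl sham 2 and 4, so its fold depends on the prior count.

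**Figure D4:**
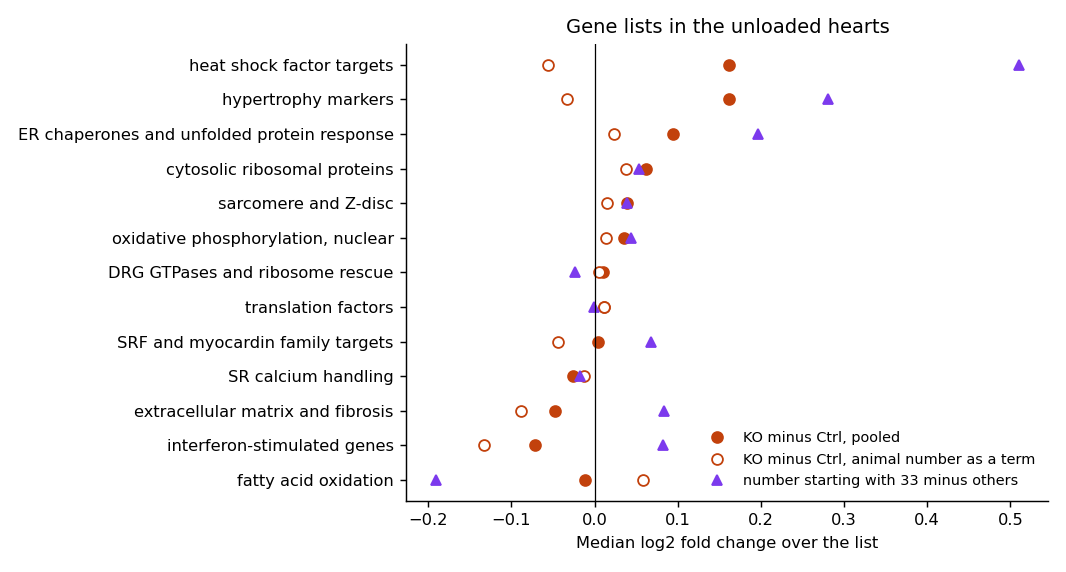
Median log2 fold change (horizontal axis) of 13 gene lists for KO sham minus Ctrl sham, pooled (filled circles) and with the animal number as a term (open circles), and for animal numbers starting with 33 minus the others (triangles). The heat shock list lies at 0.16 pooled, at -0.06 with the number as a term and at 0.51 for the number itself.

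More genes were called by animal number than by genotype. With genotype as a term, 61 genes (0.353%) were called between libraries numbered 33 and the others, 44 higher (0.255%) and 17 lower (0.0985%), and 1754 had an unadjusted p under 0.05. The 2 sets of libraries did not overlap for 1376 genes (7.97%), among them 60 of the 61 called. The count rests heavily on Ctrl sham 4, the 1 Ctrl library with such a number: 7 genes were called without it, and 176 without KO sham 3. Of the 61 genes, 0 had an unadjusted p under 0.05 between the genotypes in the pooled edgeR fit, beside 2.32% of all tested genes. That fit has no number term, and each genotype holds libraries of both kinds. A difference by number therefore widens the spread within the groups, and nothing about genotype is read from this 0.

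The higher genes were led by chaperones, the proteins that heat shock factor 1 induces when proteins misfold. Hsph1, a partner of Hsp70, stood at 37.5, 31.9, 47.5 and 43.3 CPM in the libraries with other numbers and at 272, 178, 149 and 170 CPM in those numbered 33. No library of either set reached the other, and the log2 fold change was 2.37 ± 0.23 (SE, adjusted p = 0.0212). Hsp90aa1, the inducible Hsp90, stood at 99.5, 89.0, 106 and 103 CPM against 438, 285, 267 and 354 CPM (1.86 ± 0.16 SE, adjusted p = 0.00473), and the small chaperone Hspb1 at 106, 119, 121 and 117 against 330, 233, 214 and 329 CPM (1.33 ± 0.17 SE, adjusted p = 0.037). For Hsph1 and Hsp90aa1 Ctrl sham 4 had the highest level.

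In all, 16 of 33 heat shock factor targets were called, every one of them higher, beside the 0.255% of all tested genes called higher. They include Hspa8 (0.67), the constitutive Hsp70, Hsp90ab1 (0.48), the cochaperones Chordc1 (1.06), Stip1 (0.90), Ahsa1 (0.65), Ahsa2 (1.16), Cacybp (0.69), St13 (0.41), Bag3 (0.51) and Dnaja4 (0.51), the collagen chaperone Serpinh1 (0.91), Hspa4l (0.67) and the chaperonin subunit Cct3 (0.32). The list median was 0.51 beside -0.00 over all tested genes. This list and the split by number were chosen with earlier results of these data known. These values therefore describe the split and are not an independent test of it. Also called and higher were P4ha1 (1.46), a collagen prolyl hydroxylase, Hspa1l (1.23) and the tubulin Tubb2a (0.92).

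Hspa1a, Hspa1b and Dnajb1, the strongly inducible members, were not high in every library numbered 33. The 2 sets of libraries overlapped for Hspa1b and Dnajb1 but not for Hspa1a. Hspa1a stood at 4.42, 4.11, 6.68 and 4.91 CPM with other numbers, and at 330, 151 and 149 CPM in Ctrl sham 4 and KO sham 1 and 2, but at 9.67 CPM in KO sham 3. Hspa1b showed the same split, 416, 177 and 183 CPM against 6.17 CPM in KO sham 3, and Dnajb1 had 63.6, 50 and 48.1 against 10.7 CPM. Hspa1a and Hspa1b are near copies of each other, so the division of reads between them is uncertain. None of these 3 was called (log2 fold changes 5.33, 5.57 and 1.76). KO sham 3 was within the range of the other libraries numbered 33, or above part of them, for Hsph1, Hsp90aa1 and Hspb1.

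Heat shock elements, the sites heat shock factor binds, were searched in promoters from RefSeq (GRCm38.p6, 250 bases before to 50 after the start) as GAANNTTC and TTCNNGAA, each of which reads the same on both strands. Of the 16 called targets 12 have a promoter in that table, and 5 of these 12 hold an element, as do 10 of 15 targets that were not called. Over 27025 genes 17.0% hold one. The called targets Hspa4l, Ahsa1, Ahsa2, Stip1, Cacybp, Serpinh1 and Cct3 hold none there. No link between an element and the animal number is read from these counts. Promoters of 3 called targets and of Hspa1a (not called) are shown as examples that hold an element, with elements in capitals (overlapping matches run together). They lie at chr5:135887669-135887968 on the plus strand (Hspb1, 2 matches), chr9:18292017-18292316 on the plus strand (Chordc1, 5 matches), chr5:149636287-149636586 on the minus strand (Hsph1, 3 matches) and chr17:34972107-34972406 on the minus strand (Hspa1a, 1 match).
Hspb1: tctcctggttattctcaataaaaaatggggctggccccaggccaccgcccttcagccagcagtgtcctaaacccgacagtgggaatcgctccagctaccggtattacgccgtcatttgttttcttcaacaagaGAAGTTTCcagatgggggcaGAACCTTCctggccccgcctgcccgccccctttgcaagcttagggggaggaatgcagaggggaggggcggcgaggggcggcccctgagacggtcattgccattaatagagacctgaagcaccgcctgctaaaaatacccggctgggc
Chordc1: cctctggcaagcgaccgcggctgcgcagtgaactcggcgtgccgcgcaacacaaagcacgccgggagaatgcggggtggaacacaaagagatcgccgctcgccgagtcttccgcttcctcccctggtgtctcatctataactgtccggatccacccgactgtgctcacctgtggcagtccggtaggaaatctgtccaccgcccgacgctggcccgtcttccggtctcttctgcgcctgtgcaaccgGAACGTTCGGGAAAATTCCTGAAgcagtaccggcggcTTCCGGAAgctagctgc
Hsph1: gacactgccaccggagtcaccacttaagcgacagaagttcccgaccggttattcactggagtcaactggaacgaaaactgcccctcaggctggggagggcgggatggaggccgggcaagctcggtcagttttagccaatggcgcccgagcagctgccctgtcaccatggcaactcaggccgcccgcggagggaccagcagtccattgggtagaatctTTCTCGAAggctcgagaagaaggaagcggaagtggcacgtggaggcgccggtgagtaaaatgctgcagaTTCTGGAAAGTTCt
Hspa1a: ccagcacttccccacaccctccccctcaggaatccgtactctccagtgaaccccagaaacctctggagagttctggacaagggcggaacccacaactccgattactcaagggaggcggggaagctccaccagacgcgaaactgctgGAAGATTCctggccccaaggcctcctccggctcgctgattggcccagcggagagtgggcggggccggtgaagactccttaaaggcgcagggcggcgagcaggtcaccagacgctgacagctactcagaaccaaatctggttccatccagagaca

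**Figure D5:**
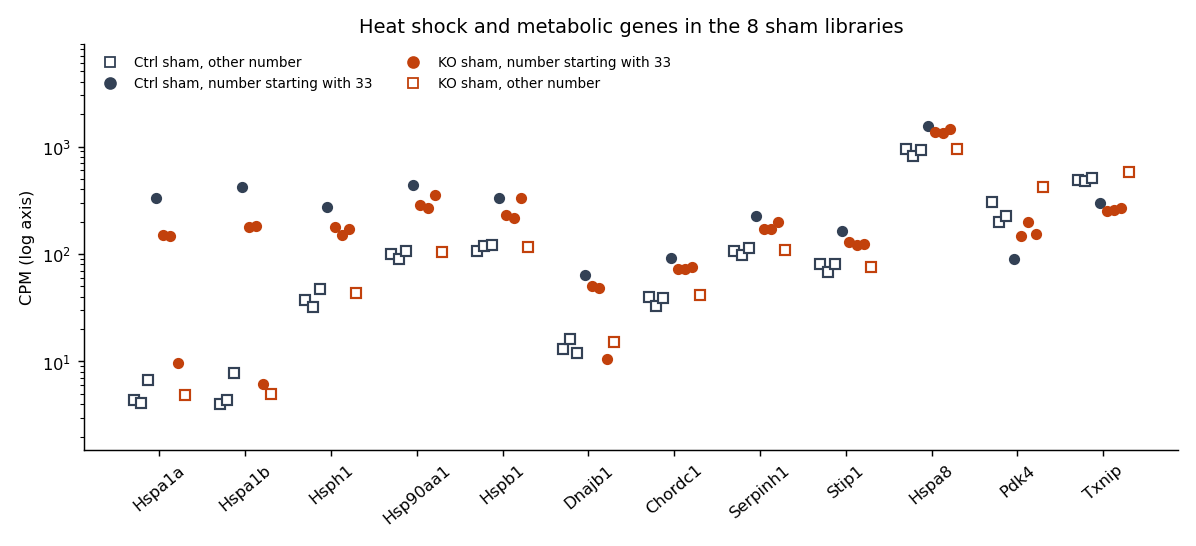
CPM (log axis) of 10 heat shock genes and 2 metabolic genes in each sham library, filled where the animal number starts with 33 and coloured by genotype. Ctrl sham 4 lies with KO sham 1, 2 and 3 and KO sham 4 with the other Ctrl libraries, except for Hspa1a, Hspa1b and Dnajb1 in KO sham 3 and for Pdk4, where KO sham 2 lies at the level of Ctrl sham 2.

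Among the lower genes were regulators of fuel use. Txnip, a brake on glucose uptake, stood at 484, 473, 509 and 579 CPM with other numbers and at 297, 249, 256 and 266 CPM with numbers starting with 33 (log2 fold change -0.95 ± 0.08 SE, adjusted p = 0.00175). The ranges did not overlap. Pdk4, a kinase that inhibits the pyruvate dehydrogenase complex, stood at 305, 199, 228 and 420 CPM against 89.4, 148, 199 and 154 CPM (-1.39 ± 0.18 SE, adjusted p = 0.0467). The hormone-sensitive lipase Lipe (-0.49), the calcium channel Cacna1h (-0.69), Bcl9 (-0.63), Fam214a (-0.63), Srsf5 (-0.45), Ip6k2 (-0.42) and Cd300lg (-0.40) were also called. Of 39 fatty acid oxidation genes 36 were below 0, with a median of -0.19, and 2 were called, where 49.6% of all tested genes were above 0 and 0.0985% were called lower.

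The genotype values of these genes differed once the number was a term. The heat shock list had a genotype median of 0.16 pooled, with 30 of 33 genes above 0 and none called, and -0.06 with the number as a term. Its per-library medians, relative to the mean of the 8, were 0.40, 0.21, 0.11 and 0.18 in the libraries numbered 33 and -0.22, -0.32, -0.20 and -0.20 in the others, and they did not overlap. For Hsph1 KO minus Ctrl was 0.48 (-1.66 to 2.61) pooled and -0.29 (-0.83 to 0.25) with the number as a term. Within the number it was -0.72 among libraries numbered 33 and 0.17 among the others, each resting on 1 library of 1 genotype. For Hspb1 the pooled 0.40 (-0.80 to 1.61) became -0.17 (-0.56 to 0.23). Pdk4 went from 0.17 (-1.05 to 1.38) to 0.84 (0.41 to 1.28), and was not called with the term.

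Single libraries also stood apart within their groups. KO sham 3 had a low circadian clock list, 0.27 log2 below the mean of the 8 libraries where the others lay between -0.01 and 0.10, with the clock gene Per1 at 39.6 CPM against 68.0 to 76.1 CPM in the other 7. Its list of endoplasmic reticulum chaperones was the highest, at 0.22, and this list separated by number, from -0.02 to 0.22 in the libraries numbered 33 and from -0.13 to -0.09 in the others. The pooled SD within groups was largest, where average log2 CPM reached 3, for genes that include Hspa1b (3.05 log2), Hist2h2aa1 (2.98) and Hspa1a (2.82). Psd3, which overlaps a predicted gene, was split, at 9.52, 38.9, 9.55 and 40.6 CPM against 40.4, 10.8, 33 and 9.35 CPM, with high and low libraries in both genotypes. The immediate early gene Fos was at 5.65 CPM in Ctrl sham 2 and at 0.929 to 1.92 CPM elsewhere, and its interval (-2.10 to 0.90) left a genotype difference of 2-fold or more unbounded. Of the 35 preset genes other than Cardinal, 25 were bounded within 2-fold, and the 10 that were not are Nppb, Pdk4, Hspa1a, Hspa1b, Hsph1, Dnajb1, Hspb1, Arntl, Fos and Egr1.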

How the data were processed

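Poly(A) RNA of the heart apex was sequenced as paired reads of 150 bases. The authors deposited raw read counts per Ensembl gene, without normalization. The submitters' processing notes name cutadapt 2.3, FastQC, HISAT2 2.1.0, edgeR 3.26.1 and GRCm38, and the counting program, annotation and use of strand are not given in the sources used here. Columns were matched to mice by title, with replicates numbered in accession order. GENCODE release 21 held 99.5% of the 55487 identifiers.

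The 8 sham libraries were filtered (filterByExpr), scaled by TMM (factors 0.950 to 1.034) and tested in edgeR 4.0.16 (R 4.3.3) by robust quasi-likelihood. A gene was called at an adjusted p (Benjamini-Hochberg) under 0.05. The SE was the size of the log2 fold change over the root of F, which also set the 95% intervals. Equivalence used paired one-sided tests against 2-fold or 1.5-fold. The number comparison held genotype and number as terms, and load values came from a fit of all 4 groups. Values after ± are SDs unless marked SE. Each mouse gave 1 library, and p-values measure the spread between these mice. The fits were also run on simulated counts with known fold changes. These counts held no difference by animal number, so they do not show how the fits behave with one.

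Alternatives were RLE factors, DESeq2 1.42.0, limma 3.58.1 (prior count 2), no filter, at least 10 counts in every library, all 16 libraries, the number term, no genotype term, mitochondrial genes left out, other thresholds and each library left out. Summing genes that share exons, leaving out Ctrl sham 4 and KO sham 4 together or the TAC pair together, and dropping Gm names were chosen after seeing the data.

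The members, the 36 lists and the tests were chosen with earlier results of these data known. Named are 36 preset genes, genes called by genotype and the 8 smallest p each way (average log2 CPM 1 or more, no overlap), the 10 largest called changes each way by animal number (2 or more) with the called heat shock factor targets, the 15 highest nuclear genes per length, the 10 largest spreads (3 or more), tested genes within 1 Mb of Cardinal, the 5 narrowest and 5 widest intervals (5 or more) and up to 4 leading members of a list. Gm and Rik names were left out of the genotype and number choices. Other marker, chemokine and interferon genes were chosen after their values were seen. A few genes that these choices name are not reported here.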

Additional observations from a re-analysis of the deposited data

Results flagged for a closer look

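Within each group of 4 libraries, 174 sets of values were examined for 1 library far from the other 3 relative to the range, and 36 (20.7%) had one. Chance sets apart about 1 set in 20 where values are not chosen beforehand. That rate does not apply here, since most sets are named genes and many were named for a difference by animal number, which puts Ctrl sham 4 and KO sham 4 apart from their groups. Of the 36, 22 concern Ctrl sham 4 and 8 concern KO sham 4, the 1 library of each genotype whose animal number differs from the rest of its group in whether it starts with 33.

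Ctrl sham 4 stood above the other Ctrl libraries, in CPM, for Hspa1a at 330, Hspa1b at 416, Hsph1 at 272, Dnajb1 at 63.6, Hspb1 at 330, Hsp90aa1 at 438, P4ha1 at 135, Hspa1l at 18.3 and Ahsa2 at 55.8. It was likewise higher for Chordc1 at 90.9, Tubb2a at 33.9, Serpinh1 at 227, Stip1 at 163, Hsp90ab1 at 1608, Dnaja4 at 161, Bag3 at 304, Ahsa1 at 110 and Cacybp at 76.8. It stood below them for Txnip at 297 and Cacna1h at 4.995 CPM. Its first principal component was 29.4, and its heat shock list lay 0.402 log2 above the mean of the 8 libraries.

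KO sham 4 stood above the other KO libraries, in CPM, for Cd36 at 1478, Txnip at 579, Bcl9 at 29.4 and Lipe at 49.1, and below them for Gemin4 at 2.48, P4ha1 at 41.5, Chordc1 at 41.2 and Stip1 at 76. KO sham 3 was set apart by a low Per1, at 39.6 CPM, by a second principal component of -41.0 and by a circadian clock list at -0.269 log2 relative to the mean of the libraries. KO sham 1 had the highest total count of its group, 67.5 × 1e6 reads. Ctrl sham 2 had a high Fos, at 5.65 CPM, and a low Slc6a17, at 5.96 CPM. What sets these libraries apart was not tested.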

How the results depend on the processing

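No paired analysis was possible because the labels give animal numbers and no replicate numbers shared between groups. Genes called between the genotypes numbered 0 in the fit to all 16 libraries (479 with an unadjusted p under 0.05), where Cardinal kept a log2 fold change of -2.92 but was not called and the KO TAC group holds a library with 377 Cardinal counts. The number was 1 (Cardinal) with the animal number as a term, with Dpm1 summed with Gm20716 (Dpm1 then at -0.25, reversed) or also with Adnp, and at an adjusted p under 0.01. It was 31 without Ctrl sham 4 and KO sham 4 together, when number and genotype coincide. Leaving out 1 library gave 1 to 3 called genes and 282 to 936 with an unadjusted p under 0.05, the highest without Ctrl sham 4, then 702 without KO sham 4, and no filter gave 942 of 33378. Genes called by animal number were 262 with DESeq2, 109 without the genotype term, 28 at an adjusted p under 0.01 and 7 to 176 when 1 library was left out (without Ctrl sham 1, Ctrl sham 3, KO sham 1 and KO sham 2 they were 34, 37, 36 and 40). The cause was not tested. Counts of genes bounded or equivalent within 2-fold stayed within 1.5 times under every alternative run, with 14750 to 15761 bounded, and 12438 were bounded within 1.5-fold. Of the 29 genes named for animal number, 4 kept their call in every alternative run and none reversed. The farther end of the Acta1 interval went past 2-fold in 7 alternatives, up to 1.19 log2. The genes with an average log2 CPM under 0 limit these bounds most, since only 59.8% of them were held within 2-fold.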
